A study of Mus musculus with 10 samples.

Results

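The chemokine and chemokine receptor genes were described in cells that the submitters call Schwann cells, the glia of peripheral nerves, sorted from pancreas and from pancreatic tumours of mice. Members were taken by symbol from the deposited gene table: every gene named Ccl, Cxcl, Xcl, Cx3cl, Ccr, Cxcr, Xcr, Cx3cr or Ackr with a number. This gave 61 of 55401 genes, 39 ligands and 22 receptors. Of these, 23 (16 ligands and 7 receptors) had enough counts to be tested between tissues.

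All mice were C57BL/6 mice of a tamoxifen-inducible KPC strain, a genetic model of pancreatic ductal adenocarcinoma. Tumours of mice injected with tamoxifen (20 mg/kg on 5 days) from 6 weeks of age gave 5 libraries, and the pancreas of mice of the same strain, given a solution without tamoxifen, gave the other 5. Tissue was taken at 4 months, and cells that bound an antibody to nerve growth factor receptor were sorted. The labels give neither the alleles nor the promoter of the Cre driver, and do not say whether libraries came from separate animals, so p-values reflect only how far these samples spread, and that spread may be technical. Pancreas was digested with hyaluronidase and collagenase and tumour with a tumour dissociation kit, so digestion and tissue cannot be told apart. The sample descriptions code the groups as CTL and COCUL without explanation.

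Chemokines are small secreted proteins that attract cells along a gradient. They are named by the spacing of their conserved cysteines (CC, CXC, XC and CX3C), and most signal through receptors coupled to inhibitory G proteins, found mainly on white blood cells. Atypical receptors (the Ackr genes) bind chemokines without this signal and take them up, which clears them from the tissue. Inflammatory ligands are switched on by NF-kappaB or interferon in stromal, epithelial and glial cells, and after nerve injury Schwann cells are known to make Ccl2, which brings in macrophages.

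Levels below are CPM (estimated counts scaled to a common library size with TMM factors), given as mean ± SD over the 5 libraries of a tissue, and library values are listed from replicate 1 to 5. A positive log2 fold change, given ± SE, means a higher level in tumour, and adjusted p-values are from edgeR's quasi-likelihood test with Benjamini-Hochberg adjustment over 17548 genes, with a threshold of 0.05. Libraries held 58242278 to 89816499 estimated counts. In each library 4 was an over-represented count, 1.69 to 2.07 times as common among genes as its neighbours, so a sequenced fragment seems to add about 4 counts. On that reading 3 fragments correspond to 0.137 to 0.206 CPM, and values below that level are at the floor. The tissues separated along the principal component with 82.0% of the variance, and pancreas replicates 3 and 4 stood apart from pancreas replicates 1, 2 and 5 along the next, with 6.28%. The genes that define the labelled cells were near the floor, with at most 22 counts per library for Ngfr, the gene of the sort antigen, and at most 9 for Sox10. Of the 14 Schwann markers 7 could be tested, 2 were higher in tumour and 1 lower, and their sum of 229 to 263 CPM in pancreas and 322 to 339 in tumour was mostly Ncam1 and Pmp22.

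The promoters of 3 of the neutrophil-attracting CXC ligands on chromosome 5 and of Cxcl10 are shown because the former sit in a cluster and moved in different directions, and because Cxcl10, which lies apart from them and had no call, holds the other motif searched. Each runs from 250 bases before to 50 bases after the RefSeq start (build GRCm38.p6), 5′ to 3′ on the gene's own strand. Capitals mark a form of the NF-kappaB site in Cxcl3, Cxcl1 and Cxcl2, which read GGGAATTTCC in each, where the search left the fifth base free. In Cxcl10 they mark the core of an interferon response element, GAAAGTGAAA, where the search left the bases between the runs of GAAA free. Both were searched on both strands, and these promoters were picked after the values were seen.
Cxcl3, lower in tumour, chr5:90785851-90786150, plus strand: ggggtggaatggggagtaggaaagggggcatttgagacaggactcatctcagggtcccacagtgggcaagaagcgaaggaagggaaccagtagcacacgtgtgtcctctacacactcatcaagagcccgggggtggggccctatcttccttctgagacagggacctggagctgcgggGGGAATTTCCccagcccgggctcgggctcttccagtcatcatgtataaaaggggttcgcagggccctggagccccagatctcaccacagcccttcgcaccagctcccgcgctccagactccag
Cxcl1, higher in tumour, chr5:90890995-90891294, plus strand: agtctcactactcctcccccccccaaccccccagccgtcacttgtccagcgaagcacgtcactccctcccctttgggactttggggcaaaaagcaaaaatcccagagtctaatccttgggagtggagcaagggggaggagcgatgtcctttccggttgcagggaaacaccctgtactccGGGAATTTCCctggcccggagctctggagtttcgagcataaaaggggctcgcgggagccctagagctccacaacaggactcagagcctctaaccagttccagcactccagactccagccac
Cxcl2, higher in tumour, chr5:90903649-90903948, plus strand: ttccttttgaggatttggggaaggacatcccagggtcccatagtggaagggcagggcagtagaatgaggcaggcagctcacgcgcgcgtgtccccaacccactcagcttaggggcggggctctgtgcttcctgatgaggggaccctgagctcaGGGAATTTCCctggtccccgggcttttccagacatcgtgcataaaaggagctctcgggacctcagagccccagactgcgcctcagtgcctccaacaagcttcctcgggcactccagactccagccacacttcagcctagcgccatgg
Cxcl10, no call, chr5:92348840-92349139, minus strand: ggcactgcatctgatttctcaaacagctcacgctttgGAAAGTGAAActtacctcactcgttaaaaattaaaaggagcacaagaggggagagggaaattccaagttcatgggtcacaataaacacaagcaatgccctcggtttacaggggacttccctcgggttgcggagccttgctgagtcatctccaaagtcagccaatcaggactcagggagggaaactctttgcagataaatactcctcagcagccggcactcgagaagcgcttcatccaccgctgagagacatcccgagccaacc

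The NF-kappaB letters began 73 bases before the start in Cxcl3, 71 in Cxcl1 and 97 in Cxcl2. They stood in 0.411% of all 32851 RefSeq promoters, and the interferon letters in 3.44%. The latter began 213 bases before the Cxcl10 start. Promoters were found for 17 of the 23 testable members, and no other of these held the letters of either search. Only these letters were searched, so other forms of either site, in Cxcl10 or any other promoter, were not looked for. Ccl2, Ccl5, Ccl7, Ccr10, Cxcl16 and Cxcl5 had no entry. The same letters thus stood in the promoters of 2 ligands that were higher and of 1 that was lower in tumour.

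Chemokine genes moved in both directions. Of the 23 testable members 8 were higher in tumour (34.8% of them) and 9 lower (39.1%), against 32.4% and 33.4% of all 17548 tested genes, of which 65.8% were called in either direction. For 14 members (60.9%) the libraries of the tissues did not overlap, as for 54.6% of all tested genes, and 9 (39.1%) were called with at least a 2-fold difference, against 23% of all tested genes. The median log2 fold change was 0.11 over the testable members and 0.00 over all tested genes. Members that passed the filter had to be present in at least 1 tissue, so these counts say nothing of the other 38. The largest change was a 12.8-fold higher level of the inflammatory ligand Ccl5, and the most abundant receptor gene, the scavenger Ackr3, was 3.71-fold lower.

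**Figure D1:**
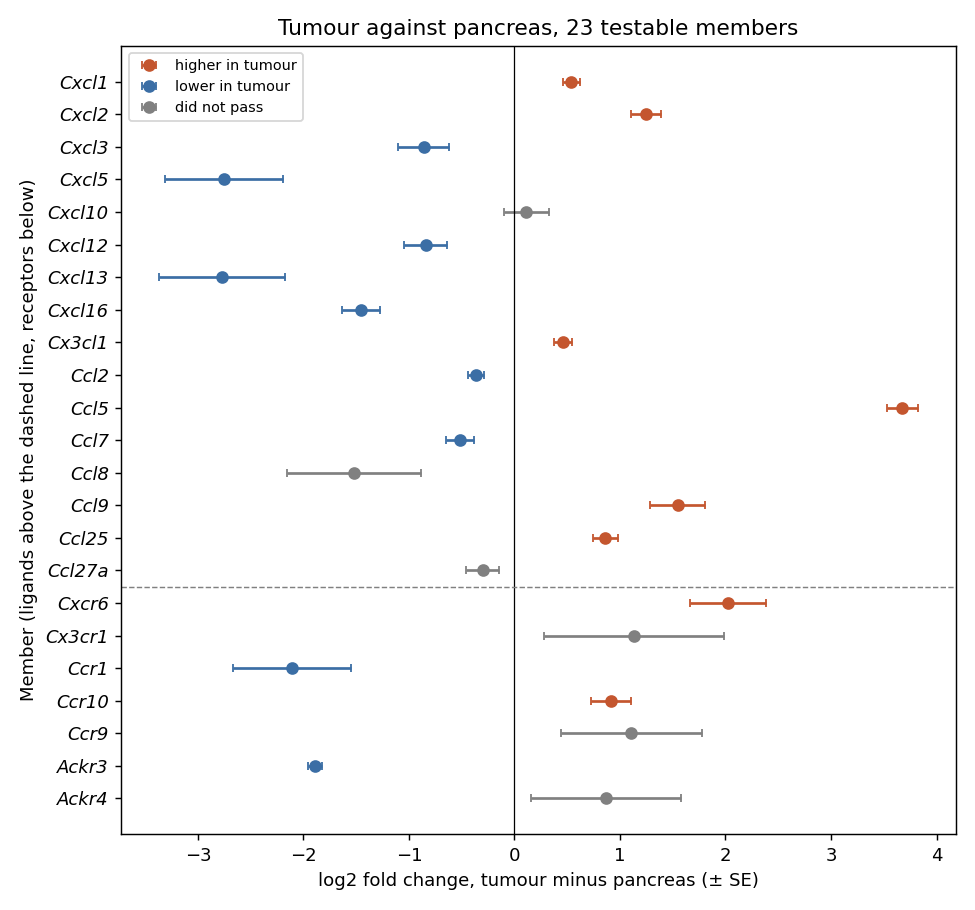
Log2 fold change of tumour against pancreas (points) with its SE (bars) for the 23 testable members, ligands above the dashed line and receptors below, coloured by whether the gene was higher, lower or did not pass at an adjusted p of 0.05. Ccl5 lies farthest to the right at 3.67, and Cxcl13 (-2.77) and Cxcl5 (-2.75) farthest to the left. Most tumour values of Cxcl13 were at the floor.

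Among the CXC ligands with the ELR motif, which bind Cxcr2 and draw in neutrophils, 2 were higher and 2 lower in tumour. Cxcl1 (ENSMUSG00000029380.11, chromosome 5, 90891241 to 90893115 in mm10) was at 96.7, 102, 116, 111 and 100 CPM in pancreas and at 145, 167, 169, 123 and 160 CPM in tumour. Every tumour library lay above every pancreas library, and the fold change was 0.54 ± 0.08 (adjusted p = 6.5e-05). Cxcl2, at 90903871 to 90905938 on the same chromosome, read 10.9, 10.1, 14.2, 14.4 and 10.6 CPM in pancreas and 26.6, 32.0, 33.4, 20.8 and 29.8 in tumour (1.25 ± 0.14, adjusted p = 3.8e-06). Tumour replicate 4 was the lowest tumour library for both genes. Cxcl5, which is induced in epithelium and stroma, went the other way, with 1.99, 1.69, 1.89, 1.71 and 2.79 CPM in pancreas and 0.285, 0, 0.532, 0.295 and 0.379 in tumour. It was 6.75-fold lower (log2 fold change -2.75 ± 0.56, adjusted p = 7.3e-04), with no overlap between tissues. Cxcl3 was lower too (1.85 ± 0.382 and 1.02 ± 0.309 CPM, -0.86 ± 0.24, adjusted p = 0.0064), and its tissues overlapped through tumour replicate 3 at 1.51 CPM. Cxcl15 was at 0 in all libraries.

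Along the chromosome these members lie in the order Cxcl5 (from 90759360), Cxcl3 (90786103), Cxcl15 (90794534), Cxcl1 (90891241) and Cxcl2 (90903871), all on the plus strand. The lower pair stood at the left of this run and the higher pair at the right. Per kilobase of exon Cxcl1 had the highest level of the run in both tissues. It reached 56.1 ± 4.25 CPM in pancreas and 81.5 ± 10.3 in tumour, Cxcl2 5.81 ± 1.01 and 13.8 ± 2.43, Cxcl3 0.530 ± 0.109 and 0.292 ± 0.0884, and Cxcl5 1.08 ± 0.241 and 0.160 ± 0.104.

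The ligands of Cxcr3, which attract T cells and are switched on by interferon, were represented by Cxcl10. It read 8.81, 7.23, 14.3, 14.98 and 6.85 CPM in pancreas and 10.9, 10.5, 12.1, 9.89 and 13.1 in tumour (0.11 ± 0.21, adjusted p = 0.65). Pancreas replicates 3 and 4, the libraries that stood apart, were above all tumour libraries and the other pancreas libraries below all of them. Without those 2 libraries Cxcl10 was higher in tumour (log2 fold change 0.56, adjusted p = 0.0017). They were singled out in these same data and were the highest of pancreas. Leaving them out had to raise the difference, so that fit is no independent test. Cxcl10 shares 133 exon bases with Art3 on the opposite strand, at 0.552 ± 0.194 CPM in tumour. Cxcl9 had at most 4 counts in any library and Cxcl11 at most 34, and neither could be tested. The annotation classes Cxcl11 as a polymorphic pseudogene.

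The remaining CXC ligands that could be tested, Cxcl12, Cxcl13 and Cxcl16, were all lower in tumour. Cxcl12, which holds blood stem cells and lymphocytes in tissue and is made mainly by stromal and endothelial cells, lies on chromosome 6 at 117168535 to 117181367 (ENSMUSG00000061353.11). Its levels were 33.5, 36.4, 69.2, 67.1 and 43.1 CPM in pancreas and 30.0, 30.1, 28.2, 28.2 and 22.6 in tumour, with every tumour library below every pancreas library (-0.84 ± 0.20, adjusted p = 0.0037). Pancreas replicates 3 and 4 again were the highest, and without them the difference was -0.44 (adjusted p = 0.0018). Cxcl16, a membrane-anchored ligand of Cxcr6, stood at 9.14, 12.1, 6.70, 8.12 and 11.9 CPM in pancreas and at 3.40, 3.86, 4.19, 2.67 and 3.39 in tumour. It was 2.74-fold lower (-1.45 ± 0.18, adjusted p = 7.8e-06), here with pancreas replicates 3 and 4 the lowest of their group. It shares 552 of its 3021 exon bases with Zmynd15 on the opposite strand, which fell as well (1.14 ± 0.495 and 0.144 ± 0.116 CPM), and reads of the pair cannot be told apart without strand. Cxcl13, the ligand that gathers B cells in follicles, had 0.481, 0.744, 0.710, 0.663 and 0.501 CPM in pancreas and 0.183, 0.0648, 0, 0.128 and 0.0659 in tumour (-2.77 ± 0.60, adjusted p = 0.0010). Most of its tumour values were at the floor, so the size of the change is uncertain. Cxcl14 was at 0 in all libraries, and Cxcl17 had at most 13 counts.

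Cx3cl1, or fractalkine, is a membrane-bound ligand known from neurons, endothelium and epithelium, and Adam10 and Adam17 shed it. It was higher in tumour, at 35.6, 42.0, 40.2, 40.05 and 52.7 CPM in pancreas and 59.2, 56.1, 58.5, 61.3 and 54.8 in tumour (0.46 ± 0.09, adjusted p = 3.4e-04). The tissues did not overlap, although pancreas replicate 5 came close to the lowest tumour library. The shedding enzymes were higher in tumour as well, Adam10 at 218 ± 26.9 and 285 ± 16.8 CPM (adjusted p = 5.0e-04) and Adam17 at 84.3 ± 4.32 and 126 ± 4.99 (adjusted p = 1.2e-07, named outside the rule for genes, after its values were seen).

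**Figure D2:**
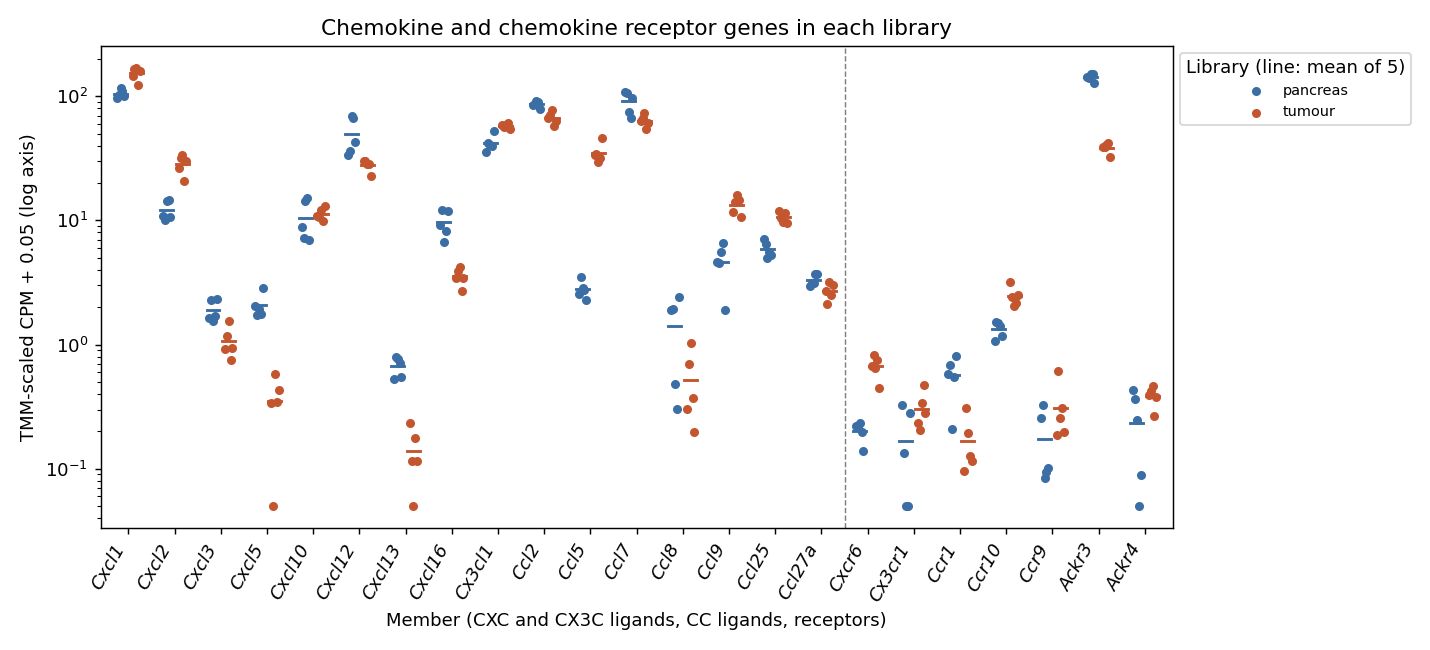
TMM-scaled CPM plus 0.05 on a log axis for each library (points) and the mean of 5 libraries (lines) for the 23 testable members, pancreas in blue and tumour in orange, ligands left of the dashed line and receptors right of it. Ccl5 rises from 2.74 to 35.0 CPM and Ackr3 falls from 143 to 38.5 CPM, while the receptors other than Ackr3 and Ccr10 stay below 1 CPM.

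The inflammatory CC ligands fell into a pair that was lower and a pair that was higher in tumour. Ccl5, a ligand of Ccr1 and Ccr3 that draws in T cells and monocytes (ENSMUSG00000035042.2, chromosome 11, 83525778 to 83530518), read 2.49, 3.46, 2.82, 2.70 and 2.22 CPM in pancreas. In tumour it read 33.5, 34.0, 29.3, 32.0 and 46.1 CPM. The lowest tumour library was thus far above the highest pancreas library, and the fold change was 3.67 ± 0.15 (adjusted p = 3.1e-10). Ccl5 is also made by T and natural killer cells. Of the 10 markers of these cells 2 could be tested (Lck higher, 0.187 ± 0.161 and 1.19 ± 0.363 CPM, and Trac lower, 1.77 ± 1.04 and 0.477 ± 0.165). Their sum was 1.24 to 3.88 CPM in pancreas and 1.42 to 2.16 in tumour, Cd3e had at most 11 counts per library and Cd3g was at 0 in all. Ccl9, a ligand of Ccr1 that mouse macrophages and myeloid cells make, stood at 4.53, 4.46, 5.48, 6.57 and 1.85 CPM in pancreas and at 11.7, 13.97, 15.8, 14.7 and 10.7 in tumour (1.55 ± 0.26, adjusted p = 2.0e-04). Of 10 macrophage markers 3 could be tested, with Cd68 higher (3.26 ± 1.74 and 9.30 ± 1.89 CPM), Cd14 lower (20.2 ± 5.45 and 9.77 ± 1.25) and Csf1r not called (6.04 ± 2.58 and 6.92 ± 0.874). Their sum was 19.7 to 42.5 CPM in pancreas and 25.1 to 27.3 in tumour, and Adgre1, C1qa, C1qb and C1qc were at 0 in all libraries.

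Ccl2 and Ccl7, the ligands of Ccr2 that bring monocytes out of the marrow, were among the most abundant members and modestly lower in tumour. Ccl2 (ENSMUSG00000035385.5, chromosome 11, 82035571 to 82037453) was at 84.5, 86.4, 92.2, 90.1 and 79.1 CPM in pancreas and at 66.7, 70.7, 77.6, 57.3 and 63.6 in tumour. Every tumour library lay below every pancreas library, and Ccl2 was 1.29-fold lower (-0.36 ± 0.07, adjusted p = 6.2e-04). Ccl7, which starts at 82045712, read 109, 106, 75.2, 67.3 and 97.1 CPM in pancreas and 62.7, 66.6, 73.5, 54.4 and 60.8 in tumour (-0.51 ± 0.13, adjusted p = 0.0046). Pancreas replicates 3 and 4 were low for Ccl7 and overlapped with tumour. Without them it was lower by more (log2 fold change -0.72, adjusted p = 5.0e-06), and Ccl2 by -0.32 (adjusted p = 0.0041). Ccl8, a neighbour at 82115185, had 1.84, 1.90, 0.435, 0.251 and 2.35 CPM in pancreas and 0.251, 0.648, 0.973, 0.321 and 0.148 in tumour, and did not pass (-1.52 ± 0.64, adjusted p = 0.051). Without pancreas replicates 3 and 4 it passed (-2.11, adjusted p = 0.0015). For Ccl7 and Ccl8 these were the lowest pancreas libraries. Leaving them out had to widen the difference, so those fits are no independent test.

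On chromosome 11 the lower genes Ccl2 and Ccl7 thus had no other member between them, nor did the higher genes Ccl5 and Ccl9 (from 83572919) in a separate group. Of the other members in these groups Ccl8 alone could be tested. Ccl12 and Ccl4 were at 0 in all libraries, Ccl11 had 62 counts over the pancreas libraries and 0 in tumour, and Ccl3 had 22 and 0. Ccl6 had at most 12 counts in a library and Ccl1 at most 7.

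Among the CC ligands with homeostatic or mixed roles 2 could be tested. Ccl25, the thymus and gut ligand of Ccr9, was at 7.04, 6.42, 4.93, 5.50 and 5.24 CPM in pancreas and at 11.9, 10.4, 9.60, 11.4 and 9.56 in tumour (0.86 ± 0.12, adjusted p = 2.6e-05). It shares 204 of 7445 exon bases with Elavl1 on the opposite strand, which was lower in tumour (98.6 and 78.8 CPM). Ccl27a, a skin ligand of Ccr10, did not pass (3.27 ± 0.352 and 2.66 ± 0.430 CPM, -0.30 ± 0.15, adjusted p = 0.10), and its near-identical copy Ccl27b had at most 1 count, so how reads were split between the copies is unknown. Ccl20, the ligand of Ccr6, had 54 counts over the pancreas libraries and 0 in tumour. Ccl17 had at most 18 counts in a library, Ccl28 at most 7 and Ccl22 at most 4. The lymph node ligands were absent or nearly so, with Ccl19 at 0 and Ccl21a, Ccl21b and Ccl21d at 2, 1 and 1 counts in all.

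Per kilobase of exon, 3 ligands held most of the ligand transcripts in both tissues. In pancreas the order was Ccl7 (113 ± 23.3 CPM per kb), Ccl2 (76.0 ± 4.47), Cxcl1 (56.1 ± 4.25), Cx3cl1 (10.7 ± 1.63), Cxcl12 (6.10 ± 2.09), Cxcl2 (5.81 ± 1.01) and Cxcl10 (4.63 ± 1.74), and the last 3 overlapped in range. In tumour it was Cxcl1 (81.5 ± 10.3), Ccl7 (79.4 ± 8.83), Ccl2 (59.1 ± 6.68), Ccl5 (36.4 ± 6.77), Cx3cl1 (14.7 ± 0.645) and Cxcl2 (13.8 ± 2.43). There Cxcl1, Ccl7 and Ccl2 all overlapped with each other, and Cx3cl1 with Cxcl2. As a share of the summed ligand level, Ccl5 made up 0.804% to 1.18% in pancreas and 9.17% to 15.5% in tumour, and Cxcl1 17.2% to 22.1% and 25.2% to 28.0%. Ccl7 made up 31.4% to 45.5% in pancreas and 24.4% to 27.6% in tumour, and Ccl2 24.2% to 29.6% and 18.0% to 20.5%. The summed ligand level itself overlapped between tissues, at 267 to 304 CPM per kb in pancreas and 261 to 333 in tumour. Lengths are those of all annotated exons of a gene joined, so a gene with long rare transcripts is understated.

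**Figure D3:**
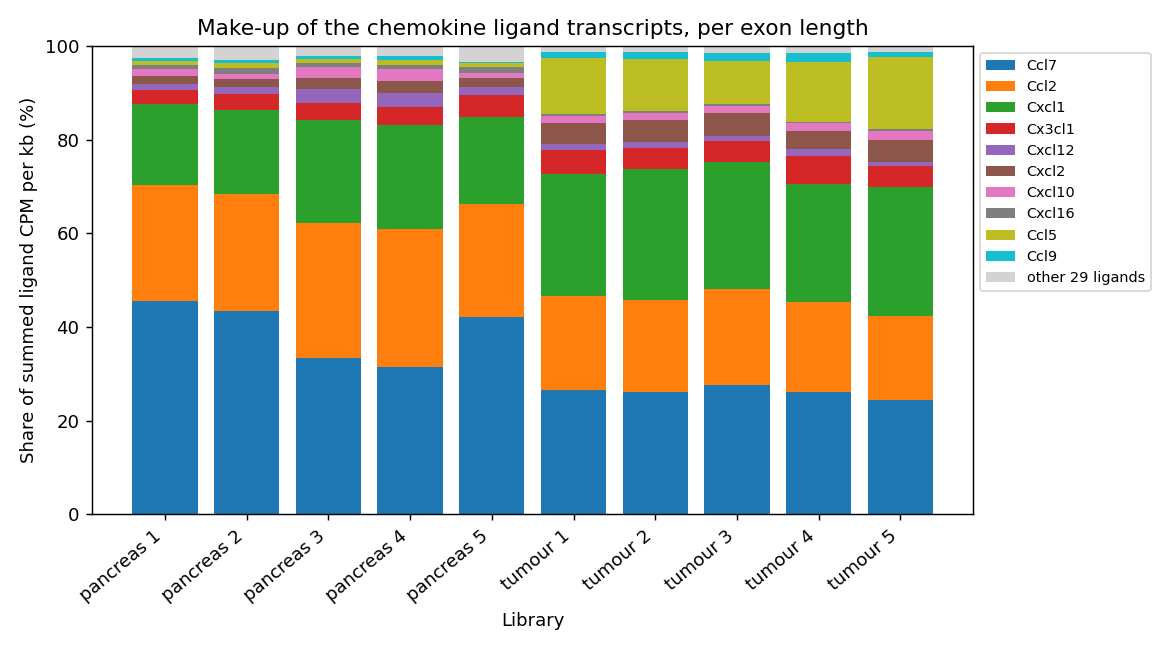
Share of each ligand in the summed ligand CPM per kb of exon (stacked bars, in percent) for the 5 pancreas and 5 tumour libraries, with the other 29 ligands in grey. The Ccl5 segment is 0.804% to 1.18% in pancreas and 9.17% to 15.5% in tumour, and Ccl7 and Ccl2 are narrower in tumour.

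Receptor genes were few and low apart from Ackr3. This atypical receptor takes up Cxcl12 and Cxcl11 (ENSMUSG00000044337.5, chromosome 1, 90203980 to 90216751). It was at 143, 141, 151, 150 and 129 CPM in pancreas and at 38.9, 38.9, 40.2, 41.9 and 32.6 in tumour. The tissues were far apart, with a fold change of -1.89 ± 0.07 (adjusted p = 1.4e-10). Ackr3 made up 97.7% to 98.6% of all receptor CPM in pancreas and 88.1% to 91.3% in tumour, and the 21 other receptors summed to 2.17 to 3.22 and 3.74 to 5.25 CPM. Its signalling counterpart Cxcr4 had 0 counts in every pancreas library and 29 over the tumour libraries, in 3 of the 5.

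Markers of stromal and endothelial cells, which are known to express Cxcl12 and Ackr3, had lower sums in tumour, where both genes were lower too. Not every marker was lower, and of all tested genes 33.4% were called lower and 32.4% higher. Of 10 fibroblast markers 8 could be tested, 7 lower and 1 higher, and their sum was 519 to 619 CPM in pancreas and 94.9 to 116 in tumour. Of 9 pericyte and muscle markers 5 were lower and 3 higher, with sums of 653 to 828 and 407 to 436 CPM. Of 9 endothelial markers 6 could be tested and 3 were lower, with sums of 343 to 396 and 202 to 210 CPM, most of it Cdh5, while Pecam1 had at most 44 counts per library. The part of these cells in the result was not tested, and in sorted bulk samples fewer cells of a type and less RNA per cell cannot be told apart.

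The remaining testable receptors were within a few CPM of the floor, and all but Ccr10 had some values at it. Cxcr6, the receptor of Cxcl16 on T cells, had 0.172, 0.165, 0.183, 0.147 and 0.0899 CPM in pancreas and 0.628, 0.777, 0.597, 0.706 and 0.395 in tumour, with no overlap (2.03 ± 0.36, adjusted p = 2.3e-04). Its pancreas values were around the floor, so the size of the change is uncertain. Cxcr6 lies within the span of Fyco1 on the opposite strand, with no shared exon base, and Fyco1 rose from 48.8 ± 3.29 to 120 ± 2.55 CPM. Ccr10 was at 1.28 ± 0.203 and 2.42 ± 0.446 CPM (0.91 ± 0.19, adjusted p = 7.7e-04), and the gene whose span it overlaps, Cntnap1, was also higher (25.5 ± 2.82 and 36.4 ± 1.92). Ccr1, a receptor of monocytes and neutrophils, had 0.532, 0.634, 0.160, 0.501 and 0.758 CPM in pancreas and 0.0457, 0.259, 0.143, 0.0770 and 0.0659 in tumour (-2.11 ± 0.56, adjusted p = 0.0043). Its tissues overlapped through pancreas replicate 3 and tumour replicate 2. Cx3cr1 (0.118 ± 0.129 and 0.256 ± 0.106 CPM, adjusted p = 0.26), Ccr9 (0.122 ± 0.111 and 0.261 ± 0.172, adjusted p = 0.16) and Ackr4 (0.186 ± 0.166 and 0.336 ± 0.0739, adjusted p = 0.30) did not pass. Ackr4 shares 479 exon bases with Acad11, at 41.8 CPM in pancreas. Cxcr1, Ccr8 and Ackr1 were at 0 in all libraries, and Cxcr3, Cxcr5, Ccr2, Ccr3, Ccr4 and Ccr6 had under 10 counts in every library. Cxcr2 had 4 to 17 counts per pancreas library and 0 in tumour, and Ccr7 had 57 counts in tumour replicate 1 and at most 9 elsewhere. Ackr2 had at most 18 counts in a library and Xcr1 at most 11.

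Few markers of the white blood cells that carry most of these receptors could be tested, though some of those stood well above the floor. Of 10 general leukocyte markers 4 could be tested and 3 were lower in tumour, with sums of 91.5 to 134 CPM in pancreas and 47.5 to 53.6 in tumour. Most of that sum was Cd53 (80.2 ± 20.6 and 36.4 ± 2.53 CPM) and Arhgdib (31.2 ± 2.56 and 13.2 ± 1.32). Ptprc, the gene of the leukocyte antigen CD45, had at most 18 counts in pancreas and 0 in tumour, and Tyrobp and Cd48 were at 0 in all libraries. Neutrophil markers summed to at most 0.447 CPM, with S100a9 and Mpo at 0 and 0 of 8 testable, and dendritic markers to 1.35 to 2.33 and 1.01 to 2.50 CPM, with 2 of 7 testable and 0 called. B and plasma cell markers summed to 3.40 to 7.21 and 0.214 to 0.571 CPM, with 2 of 7 testable and 1 lower. Mast cell markers summed to 31.3 to 40.8 and 8.75 to 12.8 CPM, with 3 of 7 testable and 2 lower, mostly Gata2.

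Of 38 listed pairs of a ligand and its receptor, 7 had both genes testable. The list was not complete, as Ccl9 (higher) with its receptor Ccr1 (lower) was not on it. In Cxcl12 and Ackr3 both were lower in tumour. Cxcl16 was lower and Cxcr6 higher, Ccl5 was higher and Ccr1 lower, and Ccr10 was higher while Ccl27a did not pass. In Cx3cl1 with Cx3cr1, Ccl25 with Ccr9 and Ccl25 with Ackr4 the ligand was higher and the receptor did not pass. In 12 pairs the ligand alone could be tested, among them Cxcl1 and Cxcl2 with Cxcr2, Ccl2 and Ccl7 with Ccr2, and Cxcl10 with Cxcr3.

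**Figure D4:**
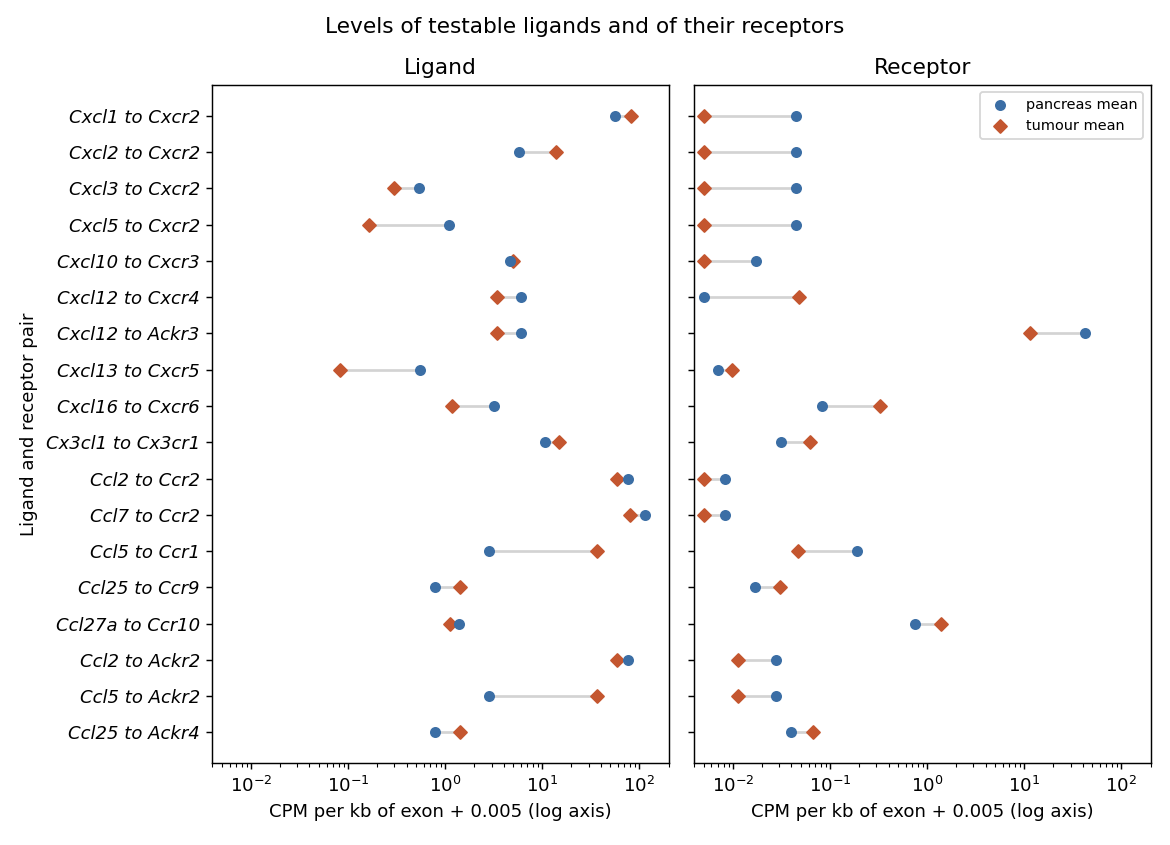
Mean CPM per kb of exon plus 0.005 on a log axis for the ligand (left) and the receptor (right) of each of the 18 pairs with a testable ligand and a receptor above 0 in some library, pancreas as blue circles and tumour as orange diamonds. Ackr3 is the only receptor shown above 2 CPM per kb, at 42.7 in pancreas and 11.5 in tumour, and receptor points at the left edge are at 0 in that tissue.

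Relatives whose symbols lie outside the naming rule could be tested for 9 of 16 genes, with 5 higher and 2 lower. Mif, a cytokine that also binds Cxcr2 and Cxcr4, was at 270 ± 26.1 and 327 ± 11.5 CPM (adjusted p = 0.0012), Cmtm6 at 57.3 ± 3.41 and 37.2 ± 2.85 (adjusted p = 9.7e-07) and Gpr182, an endothelial scavenger of chemokines, at 1.16 ± 0.288 and 3.27 ± 0.601 (adjusted p = 1.9e-05). The platelet chemokine gene Pf4 was at 0 in all libraries.

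The lists of NF-kappaB and interferon signalling genes had more genes lower than higher in tumour. Both lists mix inducers of these pathways with their inhibitors or targets, so the counts do not give a direction of signalling. Of 30 testable genes of the NF-kappaB list 20 were lower and 5 higher (median log2 fold change -0.49, against 0.00 over all tested genes). Over all tested genes 33.4% were called lower and 32.4% higher. The tumour necrosis factor receptor gene Tnfrsf1a was at 267 ± 26.7 and 180 ± 4.36 CPM, and the transcription factor genes Cebpd at 322 ± 30.8 and 49.9 ± 5.41 and Cebpb at 347 ± 55.9 and 298 ± 19.5. Tnf itself was at 0 in all libraries. Of 16 testable interferon signalling genes 9 were lower and 2 higher (median -0.34). Irf9 was at 162 ± 4.96 and 87.4 ± 3.91 CPM, and Stat2 at 237 ± 11.4 and 286 ± 14.1.

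Genes downstream of the receptors and around the ligands moved both ways, as did all tested genes (33.4% called lower and 32.4% higher). Of 20 testable genes of receptor signalling 10 were lower and 4 higher (median -0.30), among them the GTPase gene Rac1 (673 ± 69.5 and 433 ± 18.9 CPM), and the G protein genes Gnai2 (387 ± 25.0 and 358 ± 5.41) and Gnb1 (232 ± 8.54 and 267 ± 4.17). Dock2, Rac2 and Was, which belong to the migration machinery of blood cells, had at most 16 counts in any library. Of 14 testable proteases that cut or shed chemokines 6 were lower and 4 higher (median -0.02), among them Mmp14 (613 ± 80.3 and 504 ± 11.6 CPM) and Adam9 (533 ± 71.5 and 319 ± 7.70). Dpp4, which inactivates Cxcl12 and other chemokines by trimming them, had between 279 and 574 counts in the pancreas libraries and at most 7 in those of tumour, and was named after its values were seen. A further list held proteoglycans, which hold chemokines at cell surfaces, and enzymes that build or edit their sugar chains. Of its 17 testable genes 8 were higher and 6 lower (median 0.16). Among them were the proteoglycan genes Hspg2 (570 ± 82.6 and 820 ± 34.6 CPM) and Sdc1 (274 ± 52.2 and 359 ± 17.3), and the enzyme gene Sulf2 (539 ± 48.2 and 602 ± 22.6).

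Epithelial markers gave no single direction beside the ligands that epithelium can make, such as Cxcl1, Cxcl5 and Cxcl16. Of 9 ductal markers 6 could be tested and 5 were lower, with sums of 91.8 to 120 CPM in pancreas and 40.6 to 44.5 in tumour. Of 9 markers of neoplastic epithelium 4 could be tested, 1 higher and 1 lower, with sums of 1039 to 1203 and 1030 to 1231 CPM. Acinar markers summed to 0.398 to 1.32 and 1.53 to 2.73 CPM (1 of 8 testable, higher), mesothelial markers to at most 1.31 (1 of 6 testable, lower), and erythroid and platelet markers to 4.31 to 6.73 and 10.2 to 13.1 (2 of 8 testable, both higher). The part of these cells in the chemokine values was not tested.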

How the data were processed

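RNA was sequenced from 5 pancreas and 5 tumour samples, 1 library each (RNA by Trizol, libraries by NEBNext Ultra kit, per the labels). The deposited values are estimated counts per gene. Per the submitters' processing notes the tools were HISAT, HISAT2 and HTSeq with build mm10. The sources used here give no versions, annotation, filters or strand setting. Counts were whole numbers, so rounding changed 0 values, and 0 columns lacked a sample. No pair of libraries of a group agreed within sampling noise (chi-square per degree of freedom at least 3.01).

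Low genes were removed with filterByExpr (at least 10 counts, 15 in total), and the rest scaled with TMM and tested with edgeR 4.0.16 in R 4.3.3 (quasi-likelihood F test, robust, tissue as the only term), with Benjamini-Hochberg adjustment. The SE is the log2 fold change over the square root of F. The procedure was tested on simulated data. Alternatives were DESeq2 1.42.0, limma-voom (limma 3.58.1), other scalings and filters, counts divided by 4, libraries left out and the replicate block. Positions, exon lengths and overlaps came from GENCODE M21 (61 of 61 members matched), and promoters from RefSeq. Protein sequences were not used here, and a few genes are not reported here.

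Every testable member is named. Those with a mean of at least 5 CPM in either tissue, or called with a log2 fold change of at least 2, get library values. From 22 lists (6 pathway, 16 marker lists, 267 entries, all matched) up to 3 called genes of highest level are named, plus Ngfr, Ptprc, Csf1r and Cd3e, and genes at or near 0. Values for the members Ccl8 and others beyond this rule, and for Cd68, Cd14, Lck, Trac, Sox10, Pecam1, Dock2, Rac2 and Was, were added after they were seen. Members and lists were chosen with earlier results of these data known.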

Additional observations from a re-analysis of the deposited data

Results flagged for a closer look

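In 46 sets of 5 library values, 4 had a library whose gap to its nearest neighbour exceeded Dixon's 95% limit of 0.710 of the range. Chance flags about 1 set in 20. Ccl5 in tumour replicate 5 was at 46.1 CPM, with the next library at 34.0, and Cxcl12 in the same library was at 22.6, with the next at 28.2. Ccr9 in tumour replicate 2 was at 0.557 CPM, with the next at 0.257. Cxcl5 in pancreas replicate 5 was at 2.79 CPM, with the next at 1.99. Without tumour replicate 5 the log2 fold change of Ccl5 was 3.56 and that of Cxcl12 -0.77, and both remained called.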

How the results depend on the processing

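The counts of members called higher and lower were 8 and 9 and stayed within 7 to 9 and 7 to 13 under 19 alternatives. The 17 called members kept direction and call wherever they could be tested. The strict filter (at least 1 CPM in 5 libraries) and counts divided by 4 left out 7 and 6 of the 23. Ccl8 passed with DESeq2 (adjusted p = 0.019), with counts divided by 4 (0.045), and without pancreas replicate 3 (0.025), pancreas replicate 4 (0.013), both of these (0.0015) or tumour replicate 3 (0.022). Cx3cr1 passed with limma-voom only (adjusted p = 0.035). Cxcl10, which had no call, ranged from -0.0069 without pancreas replicate 5, a change of sign (adjusted p = 0.98), to 0.28 without pancreas replicate 4 when single libraries were left out, and was called higher at 0.56 without pancreas replicates 3 and 4 (adjusted p = 0.0017), all on the log2 scale. Without the low-count filter Ccl20, Ccl11, Ccl3 and Cxcr2 were called lower and Cxcr4 higher, all at 0 in every library of a tissue. Their fitted fold changes depend on the prior count. The causes were not tested. With library sizes and no TMM factors the median over all genes shifted by 0.10 on the log2 scale (57.1% of calls higher, against 49.3%), and 8 and 9 members remained called. With the replicate block the counts were also 8 and 9. Deviations of same-numbered libraries correlated at -0.04 to 0.06, so no shared signal of same-numbered libraries was seen. The labels do not say whether the numbers pair libraries, and these values cannot exclude it. Members under about 0.2 CPM rest on a few fragments.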
